A study of Mus musculus with 6 samples.

Results

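The 47 genes described here encode the machinery that copies chromosomal DNA, its supply of nucleotides and the regulators that start S phase, the part of the cell cycle in which DNA is copied. They were picked by gene symbol and by their known role, with earlier results of these data known, from the 37309 genes of a deposited RNA-sequencing table, and all 47 were present, each in a single row. The cells were smooth muscle cells of the mouse descending aorta, from the Immorto strain. In the 3 DAPT samples they had been kept for 3 days with DAPT at 50 uM, and in the 3 vehicle samples for the same time with DMSO. DAPT inhibits gamma-secretase, the protease that frees the active intracellular part of Notch receptors. The cells of both groups carry the strain's transgene for a temperature-sensitive simian virus large T antigen, which keeps cells dividing in culture. It binds retinoblastoma proteins, the brakes on the E2F transcription factors that switch on replication genes, so where large T is active both groups model S-phase entry with that brake weakened. The labels give no culture temperature. They do not say whether the 3 samples of a group came from separate cultures or animals, so the p-values measure only the spread between these samples, which may be technical.

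As background, a replication origin is first bound by the origin recognition complex, which with Cdc6 and Cdt1 loads a ring of Mcm proteins onto DNA. Geminin, the product of Gmnn, blocks Cdt1 once S phase has begun. Cdc45 and the GINS complex then turn the ring into an active helicase, primase and DNA polymerase alpha lay down primers, and polymerases epsilon and delta extend them. A ring-shaped clamp made by Pcna and loaded by the replication factor C complex tethers the polymerases to DNA. Aortic smooth muscle cells in the intact vessel wall divide rarely, while cells grown in culture with large T antigen keep cycling.

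Libraries held 10702548 to 14503665 reads. The levels given below are normalised counts, that is, reads per gene divided by 1 size factor per library. Every replication gene had at least 92 reads in every library, and all 47 passed the filter of at least 10 normalised counts in at least 3 libraries. Hes1, a direct Notch target that serves as a check on the inhibitor, had 211, 199.9 and 223 in the DAPT libraries and 319.8, 331 and 327 in the vehicle libraries, 1.54-fold lower under DAPT (limma adjusted p = 6.35e-07). Of 8 smooth muscle markers 7 were measured and 2 fell, with Myocd below the filter: Acta2 was at 252 ± 26.3 under DAPT and 520.3 ± 50.8 in vehicle and Tagln at 495 ± 36.1 under DAPT and 925 ± 60.6 in vehicle (SD, n = 3 each). The 5 measured markers not called had log2 changes, DAPT minus vehicle, of -0.06 (Myh11), -1.08 (Cnn1), -0.01 (Smtn), -0.25 (Lmod1) and 0.29 (Des). Myh11 had a mean of 47.1 under DAPT and 49.2 in vehicle (limma adjusted p = 0.845). Cnn1 had a mean of 7.53 under DAPT and 14.7 in vehicle (limma adjusted p = 0.0973). The smooth muscle markers summed to 1826 to 2021 under DAPT and 2538 to 2733 in vehicle. Mesothelial markers summed to 1552 to 1681 under DAPT and 2949 to 3007 in vehicle, and 5 of the 6 measured fell. Adventitial fibroblast markers summed to 30943 to 32434 under DAPT and 30632 to 33056 in vehicle, with 6 of 10 lower and 1 higher. Leukocyte markers summed to 624 to 641 under DAPT and 559 to 609 in vehicle, with 1 of 4 measured markers higher and Adgre1 and Cd3e at 0 in all 6 libraries. Endothelial markers summed to 641 to 669 under DAPT and 644 to 698 in vehicle, and none of the 5 measured was called, with 1 lower at an unadjusted limma p below 0.05 and none higher. Of all genes tested, 9.22% were called higher and 8.91% lower. The part of these marker differences in the results below was not tested. In such bulk RNA fewer cells of a type and less RNA per cell cannot be told apart.

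Under DAPT 11 of the 47 replication genes rose and 1 fell, by small amounts. The genes that rose were Ccne2, Rrm2, Chaf1b, Pcna, Rpa1, Cdc6, Uhrf1, Cdc45, Pola1, Lig1 and Tk1, and the gene that fell was Pold2. A gene was called when its Benjamini-Hochberg adjusted p, over all 14906 genes tested with limma, was below 0.05. The 11 genes that rose were 8.79% to 21.5% above vehicle, and no replication gene differed by 2-fold. Called genes made up 25.5% of the replication genes, against 18.1% of all genes tested and 21.4% of the 10629 tested genes in the same range of levels. By direction, 23.4% of the replication genes rose, against 9.22% of all genes tested and 11.3% of those in the same range of levels. The share that fell was 2.13%, against 8.91% of all and 10.1% of those in the same range. The median log2 change of the 47 genes was 0.08, against 0.0009 over all genes tested. Mean levels were above vehicle in 39 of the 47, against 50.3% of all genes. Together the 47 genes took 0.550% ± 0.00379 of all normalised counts under DAPT and 0.524% ± 0.00288 in vehicle (SD, n = 3 each), with each DAPT library above each vehicle library. The count of 11 was lower in several alternatives. It was 4 without DAPT replicate 2, 6 without DAPT replicate 3 and 6 without vehicle replicate 2. It was 5 with edgeR and 1 with DESeq2, both run on the 5 libraries whose reads could be recovered. In these fits, in the same order, 6.28%, 6.52%, 7.08%, 6.38% and 3.01% of all genes rose. The 1 gene with DESeq2 was 2.13% of the 47, below the share of all genes.

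**Figure D1:**
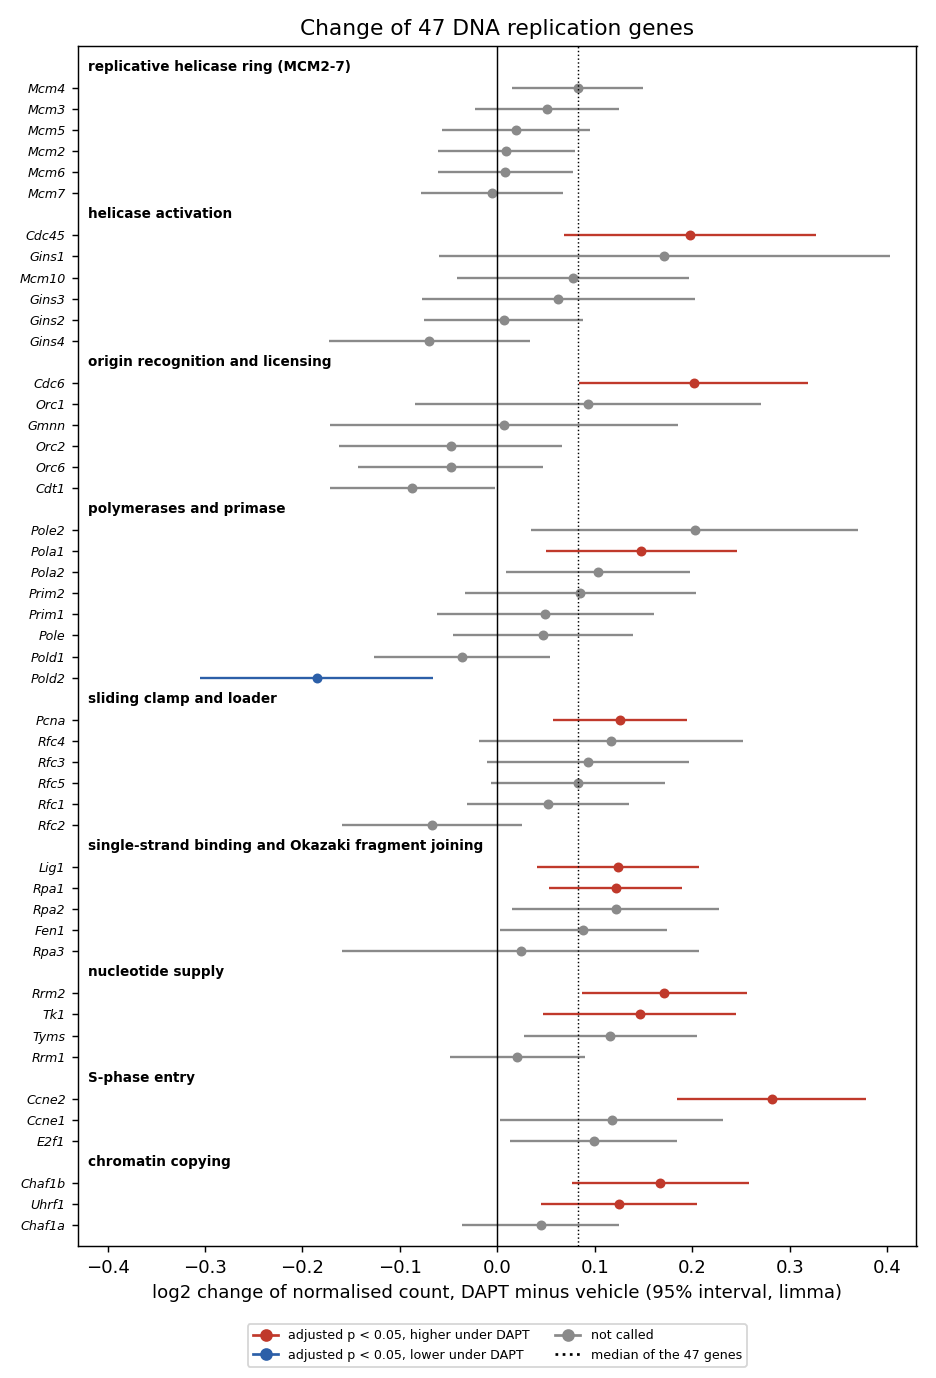
Log2 change of each of the 47 genes (x axis, DAPT minus vehicle, from limma; points are estimates and lines 95% intervals), arranged by role from top to bottom. The 11 red genes rose, the 1 blue gene (Pold2) fell, and none of the 6 genes of the Mcm ring was called. Mcm4 is the highest of the ring at 0.08, with an interval of 0.02 to 0.15.

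Values of the 2 groups were fully apart in 20 of the 47 genes (42.6%), against 33.3% of all genes tested. In 17 of the 47 (36.2%) all 3 DAPT values lay above all 3 vehicle values, against 16.8% of all genes tested. In 3 genes (6.38%), Cdt1, Pold2 and Rfc2, all 3 lay below, against 16.4% of all genes tested. Among tested genes in the same range of levels, 37.6% were fully apart, 19.7% above and 17.9% below. Of the 35 genes not called, 28 had a mean above vehicle and 7 below. In 9 of those 35 the 95% interval of the change lay wholly on 1 side of 0, below 0 in Cdt1. With the called genes included, 21 of the 47 had an unadjusted limma p below 0.05, 19 higher and 2 lower. Among all 14906 genes tested 4471 (30%) did, 2267 higher and 2204 lower. Between replicates the genes varied little, with a median coefficient of variation of 3.66% under DAPT and 3.54% in vehicle. By the authors' deposited table, adjusted p-values below 0.05 were given to 3 of the 47 genes, namely Ccne2 (0.00061), Rrm2 (0.0196) and Pcna (0.0382), all higher under DAPT. That is 6.38% of the 47, below the 9.53% of the 14906 genes tested that have such a value in the authors' deposited table.

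The choice of genes did not use promoter sequence. It did use roles in replication, and E2F factors switch on replication genes, so a high share of E2F sites is not independent of the choice. E2F factors bind short GC-rich sites, and 4 forms of that site were searched on both strands: TTTGGCGC, TTTCCCGC, TTTGCCGC and TTTCGCGC. The windows ran from 250 bases before to 50 after each gene's start, as RefSeq places it on GRCm38.p6, a later build than the mm9 of the deposited table. Windows were found for 38 of the 47 genes, and 14 of those genes (36.8%) held at least 1 of the 4 forms. Among all 27025 genes with such windows the share was 2.60%, and among the 9320 of them that were also tested here it was 4.70%. Of the 11 called genes with a window 4 held it, and of the 27 not called 10 held it. Ccne2, the called gene with the largest change, had no window. A match is a description of letters, not evidence of binding. The stretches around the site are shown for the 4 genes that rose and held it, read along the gene's strand, with the matched letters in capitals.
Cdc6: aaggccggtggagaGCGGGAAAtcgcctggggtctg
Pola1: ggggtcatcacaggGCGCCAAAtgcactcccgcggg
Lig1: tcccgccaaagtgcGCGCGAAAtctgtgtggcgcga
Uhrf1: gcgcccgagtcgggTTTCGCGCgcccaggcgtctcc

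The same letters occur in 4 genes of the Mcm ring that were not called, 2 of which carry overlapping copies on opposite strands. Each stretch starts before the match nearest the left end of the window. A further match in Mcm6 and another in Mcm7 lie outside the stretches shown.
Mcm3: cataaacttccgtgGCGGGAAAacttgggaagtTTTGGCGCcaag
Mcm5: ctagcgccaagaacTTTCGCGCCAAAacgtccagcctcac
Mcm6: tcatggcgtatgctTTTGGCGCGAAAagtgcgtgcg
Mcm7: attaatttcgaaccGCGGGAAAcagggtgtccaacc

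These stretches lie within the windows chr11:98907901-98908200 (plus strand) for Cdc6, chrX:93632106-93632405 (minus strand) for Pola1, chr7:13278576-13278875 (plus strand) for Lig1 and chr17:56304063-56304362 (plus strand) for Uhrf1. For the Mcm genes the windows are chr1:20820263-20820562 (minus strand), chr8:75109259-75109558 (plus strand), chr1:128359656-128359955 (minus strand) and chr5:138171834-138172133 (minus strand), in the order Mcm3, Mcm5, Mcm6 and Mcm7. Lig1, Uhrf1 and Mcm7 have further windows, which held none of the 4 E2F forms. Counted from the start site, the match began at position -138 in both Cdc6 and Pola1, at -185 in Uhrf1 and at 27, within the transcribed part, in Lig1. Mcm6 held 3 matches, the first beginning at -110. Of 2 further motifs, CCAAT occurred in 24 of the 38 genes (63.2%), against 41.1% of all genes with a window and 43.4% of those tested. TTTGAA, part of the element found in promoters of genes used late in the cycle, occurred in 5 (13.2%), against 20.2% of all genes with a window and 14.2% of those tested, so its share was near that of the tested genes. Pold2, the gene that fell, has 2 windows, and neither held any of the 4 E2F forms. The window at chr11:5877614-5877913 (minus strand) held 2 matches of TTTGAA and 0 of CCAAT. The other held 0 of TTTGAA and 3 copies of CCAAT, all read on the opposite strand as ATTGG and shown in capitals, at chr11:5878207-5878506 (minus strand).
Pold2: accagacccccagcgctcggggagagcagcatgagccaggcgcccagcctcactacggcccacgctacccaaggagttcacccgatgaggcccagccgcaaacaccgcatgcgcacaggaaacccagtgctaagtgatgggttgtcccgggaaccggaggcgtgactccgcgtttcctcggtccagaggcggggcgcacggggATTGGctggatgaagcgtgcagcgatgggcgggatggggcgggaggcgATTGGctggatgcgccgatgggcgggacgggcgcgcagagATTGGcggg

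Cyclin E2 had the largest log2 change of the 47 genes and was the 1 gene of the 3 for S-phase entry that rose. Ccne2, whose product activates the kinase Cdk2 at the start of S phase, had 819.7, 810.2 and 838 in the DAPT libraries and 653, 687 and 691 in the vehicle libraries. All 3 DAPT values exceeded all 3 vehicle values by a margin wider than the spread within either group. The means were 823 ± 14.1 under DAPT and 677 ± 20.9 in vehicle (SD, n = 3 each), 1.22-fold higher (limma adjusted p = 9.84e-05, log2 change 0.28 with an SE of 0.0469). It was the one gene of the 47 called under all 16 alternatives that were run. Ccne1, which encodes the related cyclin E1, had 572, 564 and 533 in the DAPT libraries and 493, 542 and 505 in the vehicle libraries, with groups that overlapped (log2 change 0.12, 95% interval 0.0026 to 0.23, limma adjusted p = 0.157). E2f1, the best known activator of replication genes, had 1264, 1314 and 1305 in the DAPT libraries and 1179, 1190.2 and 1258 in the vehicle libraries. Its groups did not overlap, but the gap was narrow and it was not called (log2 change 0.10, 95% interval 0.01 to 0.18, limma adjusted p = 0.104). E2f1 was called without vehicle replicate 3 (adjusted p = 0.0385).

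**Figure D2:**
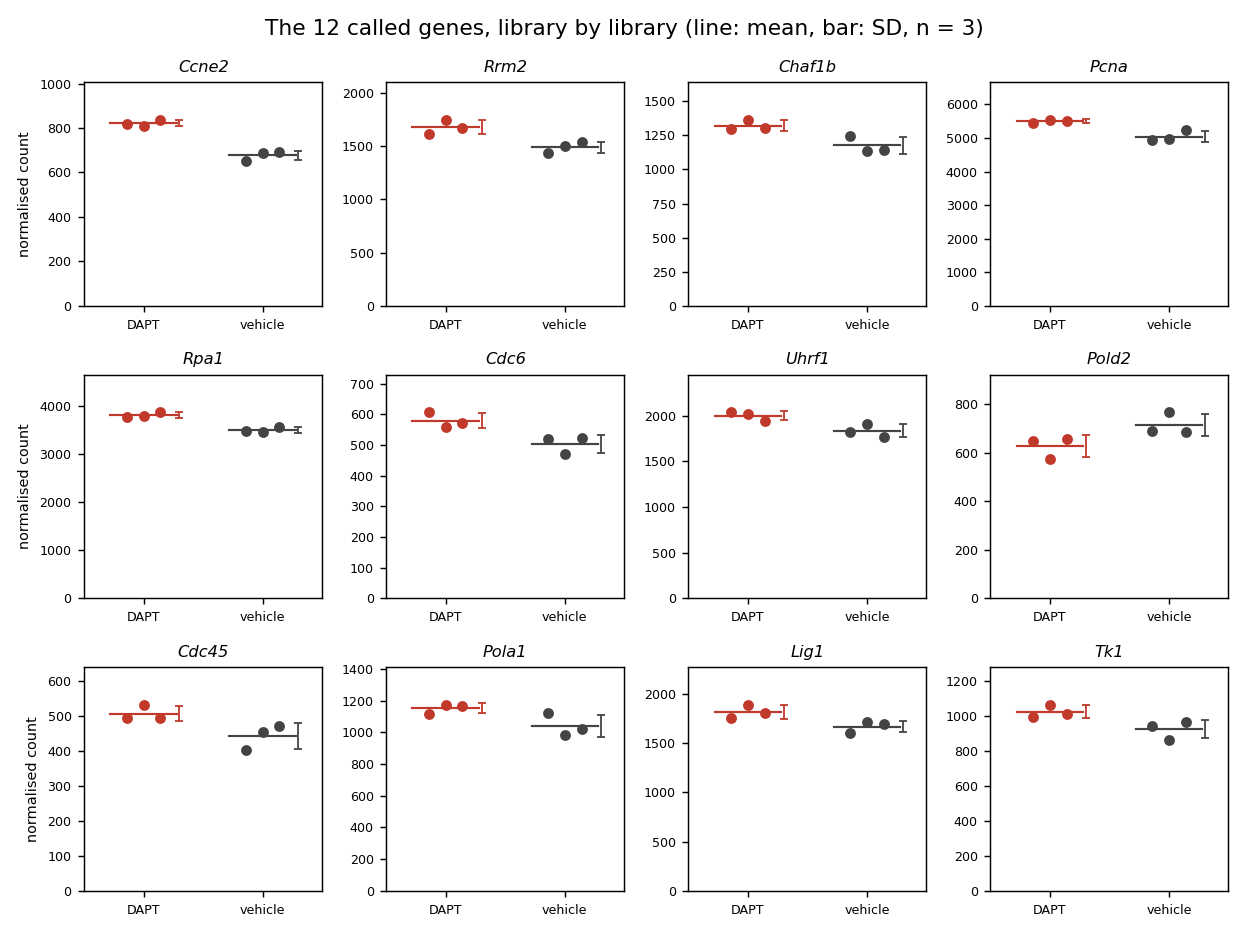
Normalised counts (y axis, from 0) of the 12 called genes in each of the 3 DAPT and 3 vehicle libraries, with the mean as a line and the SD as a bar. In 11 of the 12 the groups do not overlap, and in Pola1 vehicle replicate 1 (1119) lies above DAPT replicate 1 (1114).

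In nucleotide supply 2 of 4 genes rose and 2 were not called, with a median log2 change of 0.13. Rrm2, the subunit of ribonucleotide reductase that is made in S phase, had 1615, 1748 and 1669 in the DAPT libraries and 1432, 1498 and 1537 in the vehicle libraries, 1.13-fold higher (limma adjusted p = 0.00415, log2 change 0.17 with an SE of 0.0411). Its partner Rrm1, the large subunit, had 4321, 4382 and 4287 in the DAPT libraries and 4366, 4124 and 4320.3 in the vehicle libraries, with values that interleaved between the groups. The log2 change of Rrm1 was 0.02, with a 95% interval of -0.05 to 0.09 (limma adjusted p = 0.744), and it was the most abundant gene of this group per length. Tk1, thymidine kinase, which salvages thymidine, had 994, 1066 and 1011 in the DAPT libraries and 946, 866 and 965 in the vehicle libraries (limma adjusted p = 0.0349, log2 change 0.15 with an SE of 0.0478). Tyms, thymidylate synthase, which makes thymidylate anew, had 972, 967 and 999 in the DAPT libraries and 906, 921 and 885 in the vehicle libraries and was not called (limma adjusted p = 0.0645), although its groups did not overlap.

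Among the 5 genes for single-strand binding and for joining Okazaki fragments, the short pieces of the lagging strand, 2 rose and 3 were not called, and all 5 means were above vehicle. Rpa1, the large subunit of replication protein A, which coats single-stranded DNA, had 3783, 3791 and 3883 in the DAPT libraries and 3490.4, 3465 and 3576 in the vehicle libraries (limma adjusted p = 0.0108, log2 change 0.12 with an SE of 0.0330). Every DAPT value of Rpa1 was above every vehicle value. Its partners were Rpa2, at 599, 569 and 593 in the DAPT libraries and 529, 540.5 and 549.9 in the vehicle libraries (limma adjusted p = 0.109), and Rpa3, whose groups overlapped (log2 change 0.02, 95% interval -0.16 to 0.21). Lig1, DNA ligase I, which seals the fragments, had 1751, 1889 and 1803 in the DAPT libraries and 1598, 1709 and 1688 in the vehicle libraries (limma adjusted p = 0.0338, log2 change 0.12 with an SE of 0.0403). Fen1, which trims the flaps before sealing, had a mean of 1479 ± 72.2 under DAPT and 1389.7 ± 10.8 in vehicle (SD, n = 3 each) and was not called (limma adjusted p = 0.152). Both Lig1 and Rpa1 lost their calls in some settings: Lig1 in 6 of the 16 alternatives and Rpa1 in 4.

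Pcna, the sliding clamp, had 5439, 5548 and 5516 in the DAPT libraries and 4936, 4965 and 5229.7 in the vehicle libraries, 1.09-fold higher (limma adjusted p = 0.00882, log2 change 0.13 with an SE of 0.0331). The DAPT values lay close together and above all vehicle values, of which vehicle replicate 3 was the highest. Pcna has a copy, Pcna-ps2, that the table lists as its own gene. Pcna-ps2 had 1353 ± 49.8 under DAPT and 1182 ± 12.3 in vehicle (SD, n = 3 each), so the split of reads between the 2 is uncertain. None of the 5 clamp loader subunits was called by limma, edgeR or DESeq2, and none had an unadjusted limma p below 0.05. Rfc3 and Rfc4 were above vehicle without overlap, with log2 changes of 0.09 (95% interval -0.01 to 0.20) and 0.12 (-0.02 to 0.25). Rfc5 and Rfc1 overlapped between groups, at 0.08 (-0.0064 to 0.17) and 0.05 (-0.03 to 0.14). Rfc2 lay below vehicle without overlap, at -0.07 (-0.16 to 0.03).

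Genes for copying chromatin along with DNA also rose, 2 of 3. Chaf1b, a subunit of chromatin assembly factor 1, which places histones on new DNA, had 1294, 1366 and 1302 in the DAPT libraries and 1248, 1139 and 1144 in the vehicle libraries (limma adjusted p = 0.00871, log2 change 0.17 with an SE of 0.0440). Uhrf1, which helps to copy DNA methylation, had 2040.3, 2017 and 1944 in the DAPT libraries and 1824, 1912 and 1771 in the vehicle libraries (limma adjusted p = 0.0265, log2 change 0.12 with an SE of 0.0387). In both genes the lowest DAPT value was above the highest vehicle value. Chaf1a, the large subunit of the same assembly factor and the most abundant of the 3 per length, had 1814, 1816 and 1689 in the DAPT libraries and 1744, 1693 and 1718 in the vehicle libraries. Its groups overlapped, since DAPT replicate 3 lay below all vehicle libraries, and it was not called (log2 change 0.04, 95% interval -0.04 to 0.13).

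The genes of the replicative helicase ring had small changes. The smallest log2 change of a replication gene called higher was 0.12. The 95% intervals of Mcm3 and Mcm4 reached that size, with upper limits of 0.125 and 0.15. Those of Mcm2, Mcm5, Mcm6 and Mcm7 stopped below it, with upper limits of 0.08, 0.095, 0.08 and 0.07. None of the 6 ring genes was called by limma, edgeR or DESeq2, with 1 (Mcm4) at an unadjusted limma p below 0.05. Their median log2 change was 0.01 and their 95% intervals together ran from -0.08 to 0.15. Mcm2, the most abundant per length, had 4385, 4396 and 4219 in the DAPT libraries and 4434, 4183 and 4299.9 in the vehicle libraries (log2 change 0.01, 95% interval -0.06 to 0.08). Mcm4 was the highest of the 6 relative to vehicle, at 4616, 4682 and 4723 in the DAPT libraries and 4344, 4511 and 4389 in the vehicle libraries. Its groups did not overlap (log2 change 0.08, 95% interval 0.02 to 0.15, limma adjusted p = 0.0824). Mcm4 was called with quantile normalisation (adjusted p = 0.0235). The other 4 overlapped between groups, at log2 changes of 0.05 for Mcm3, 0.02 for Mcm5, 0.0083 for Mcm6 and -0.0056 for Mcm7. The sign of Mcm2, Mcm5, Mcm6 and Mcm7 changed in at least 1 alternative, so no direction is given for them.

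Of the 6 genes that activate the ring, 1 rose. Cdc45, a subunit of the active helicase, had 494, 533 and 496 in the DAPT libraries and 404, 454 and 473 in the vehicle libraries (limma adjusted p = 0.0292, log2 change 0.20 with an SE of 0.0625). Its groups did not overlap, with vehicle replicate 1 the lowest. The 4 GINS subunits were not called: the log2 change was 0.17 for Gins1 (95% interval -0.06 to 0.40), 0.0063 for Gins2 (-0.07 to 0.09), 0.06 for Gins3 (-0.08 to 0.20) and -0.07 for Gins4 (-0.17 to 0.03). Gins4, the most abundant of the 6 per length, had 665, 647 and 697 in the DAPT libraries and 732, 697 and 681 in the vehicle libraries, and its groups overlapped. Mcm10, which links the helicase to polymerase alpha, was at 477 ± 21.4 under DAPT and 452 ± 16.5 in vehicle (SD, n = 3 each) and was not called (limma adjusted p = 0.404). The call of Cdc45 was lost in 6 of the 16 alternatives, and without vehicle replicate 1 its log2 change was 0.13 (limma adjusted p = 0.169).

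Among the 6 licensing genes 1 rose and their median log2 change was -0.02. Cdc6 had 607, 559.8 and 573 in the DAPT libraries and 520.1, 471 and 522 in the vehicle libraries, 1.15-fold higher (limma adjusted p = 0.014, log2 change 0.20 with an SE of 0.0567), and the groups did not overlap. Cdt1, its partner in loading the ring and the most abundant of the 6 per length, lay below its vehicle level. It had 1388, 1284 and 1311 in the DAPT libraries and 1439, 1398 and 1393 in the vehicle libraries, with every DAPT value below every vehicle value, and was not called (log2 change -0.09, 95% interval -0.17 to -0.0026, limma adjusted p = 0.153). Gmnn, the inhibitor of Cdt1, had 250.2, 238 and 225 in the DAPT libraries and 225, 271 and 216 in the vehicle libraries and the widest spread of the 47 genes in vehicle, with a coefficient of variation of 12.5%. Its log2 change was 0.0069 (95% interval -0.17 to 0.19). The origin recognition genes Orc1, Orc2 and Orc6 overlapped between groups, at log2 changes of 0.09 (95% interval -0.08 to 0.27), -0.05 (-0.16 to 0.07) and -0.05 (-0.14 to 0.05).

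Of the 8 polymerase and primase genes 1 rose, 1 fell and 6 were not called. Pola1, the catalytic subunit of polymerase alpha, had 1114, 1174 and 1163 in the DAPT libraries and 1119, 982 and 1017 in the vehicle libraries (limma adjusted p = 0.0313, log2 change 0.15 with an SE of 0.0475). Its groups overlapped through vehicle replicate 1. Pola2, the second subunit and the most abundant of the 8 per length, had 896, 883 and 867 in the DAPT libraries and 788, 847 and 829 in the vehicle libraries, without overlap, and was not called (limma adjusted p = 0.125). Pold2, the small subunit of polymerase delta, had 650.1, 577 and 659.7 in the DAPT libraries and 691, 769 and 684 in the vehicle libraries, 1.14-fold lower (limma adjusted p = 0.0269, log2 change -0.19 with an SE of 0.0578). All 3 DAPT values of Pold2 lay below all vehicle values, with DAPT replicate 2 the lowest and vehicle replicate 2 the highest. Without DAPT replicate 2 its limma adjusted p was 0.206, and without vehicle replicate 2 it was 0.176, so the call was lost in both fits. Pold1, the catalytic subunit of the same enzyme, had a log2 change of -0.04 with a 95% interval of -0.13 to 0.05. Of the polymerase epsilon genes, Pole2 had a log2 change of 0.20 (0.03 to 0.37, limma adjusted p = 0.0888) and Pole of 0.05 (-0.05 to 0.14). The primase genes Prim1 and Prim2 were at 0.05 (-0.06 to 0.16) and 0.09 (-0.03 to 0.20).

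**Figure D3:**
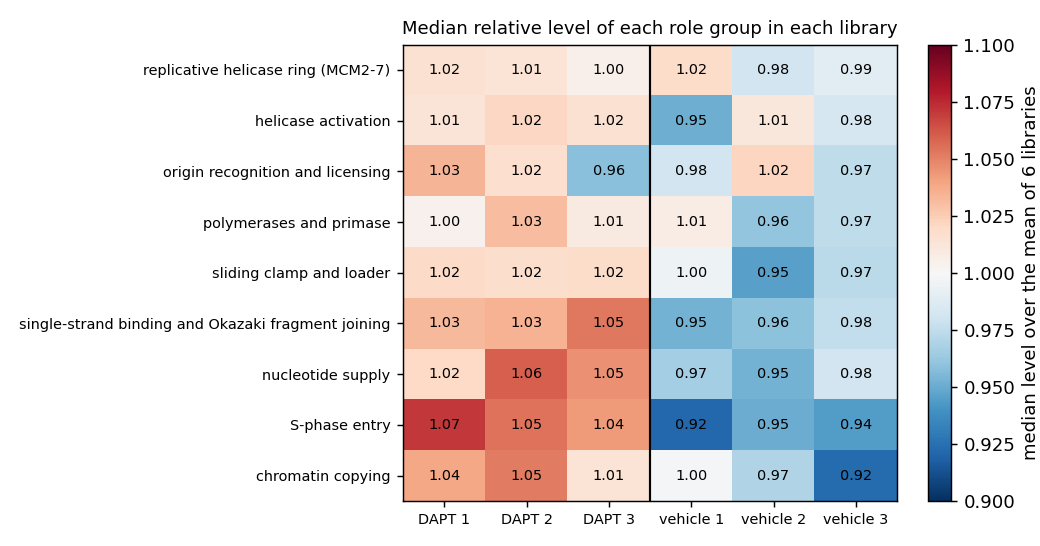
Median relative level of each role group (rows) in each library (columns), where 1 is a gene's mean over the 6 libraries. In 6 of the 9 rows all 3 DAPT libraries are above all 3 vehicle libraries, by the least in helicase activation, while in the rows for the Mcm ring, licensing and polymerases the libraries interleave.

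To compare roles, each gene's value was divided by its own mean over the 6 libraries. For S-phase entry the median relative level was 1.07, 1.05 and 1.04 in the DAPT libraries and 0.922, 0.951 and 0.944 in the vehicle libraries. For the Mcm ring it was 1.02, 1.01 and 1.00 under DAPT and 1.02, 0.981 and 0.990 in vehicle. Over all 47 genes it was 1.02, 1.03 and 1.02 under DAPT and 0.968 to 0.982 in vehicle, and every DAPT library lay above every vehicle library. The role groups hold 3 to 8 genes each, and differences between role groups were not tested.

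Levels per length spanned a wide range. On the scale of normalised counts per kilobase of deposited gene length, Pcna was highest at 1935 ± 19.8 under DAPT and 1774 ± 56.9 in vehicle, and Orc1 lowest at 32.2 ± 2.55 under DAPT and 30.1 ± 1.49 in vehicle (SD, n = 3 each). Within the Mcm ring, whose 6 proteins assemble in equal numbers, the level per kilobase was 1286 ± 29.5 under DAPT and 1278 ± 37.2 in vehicle for Mcm2 and 574 ± 13.3 under DAPT and 567 ± 19.2 in vehicle for Mcm5, a ratio of 2.25 over all libraries. The order was Mcm2, Mcm4, Mcm3, Mcm6, Mcm7 and Mcm5, and among neighbours in that order only Mcm7 and Mcm5 overlapped within 1 SD of their group means. In ribonucleotide reductase Rrm1 stood at 1083 ± 12.1 under DAPT and 1068 ± 32.1 in vehicle and Rrm2 at 451 ± 18.0 under DAPT and 400.4 ± 14.2 in vehicle. In licensing, Cdt1 stood at 607 ± 24.8 under DAPT and 644 ± 11.6 in vehicle and Cdc6 at 61.1 ± 2.60 under DAPT and 53.2 ± 3.07 in vehicle. The deposited lengths of Cdc6 (9488 bases), Fen1 (10524) and Mcm10 (10749) are long, which lowers their values on this scale.

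**Figure D4:**
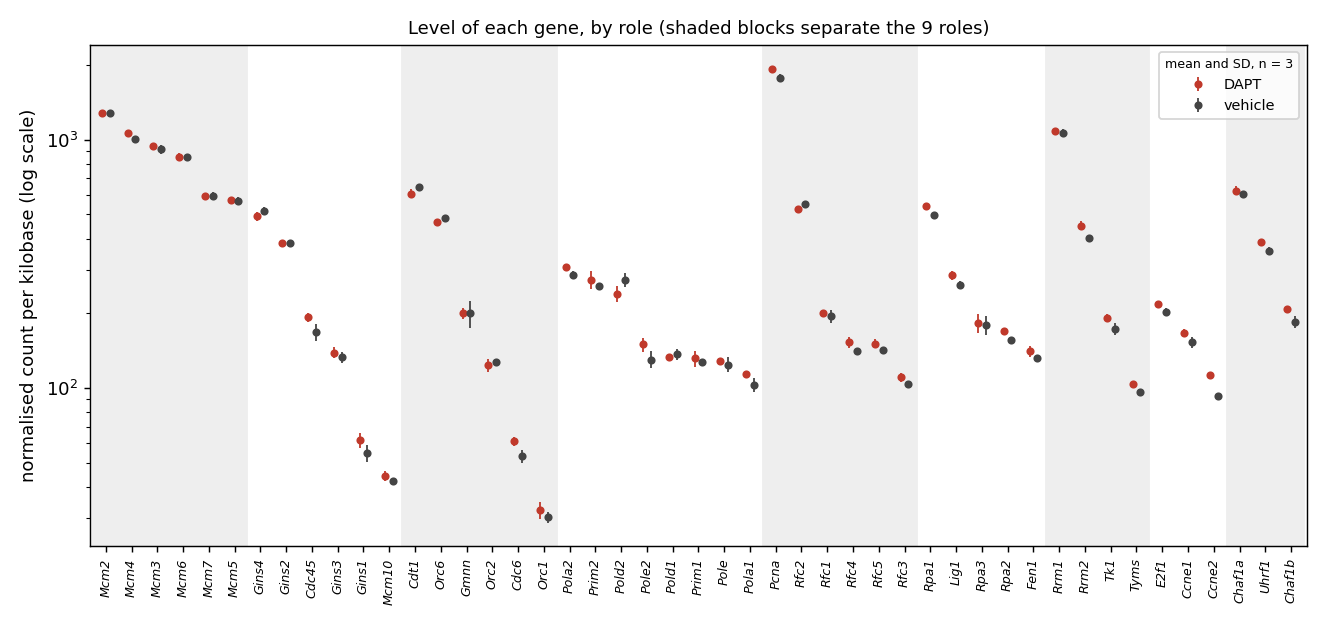
Normalised count per kilobase (y axis, log scale) of each of the 47 genes, mean and SD of the 3 DAPT and the 3 vehicle libraries, in shaded and white blocks for the 9 roles. Pcna is the highest and Orc1 the lowest in both groups, and the changes under DAPT are small beside the differences between genes.

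A list of 43 other replication genes shares no member with the 47. All 43 were measured, and by limma 11 rose (25.6%), 0 fell and 32 were not called, with a median log2 change of 0.07. Among all genes tested 9.22% rose and 8.91% fell. At an unadjusted limma p below 0.05, 15 were higher and 1 lower, against 2267 higher and 2204 lower of all 14906 genes tested. Rnaseh2b, a subunit of the enzyme that removes ribonucleotides from DNA, had 333, 311 and 314 in the DAPT libraries and 242, 243 and 260.3 in the vehicle libraries (limma adjusted p = 0.000566). 2810417H13Rik, now named Pclaf, whose product binds the Pcna clamp, had 929.6, 913 and 949 in the DAPT libraries and 815, 819 and 806 in the vehicle libraries (limma adjusted p = 0.00236). In both of these genes the groups did not overlap. The count that rose was 5 without DAPT replicate 2, 7 without DAPT replicate 1 and 2 with DESeq2. The count that fell was 0 with edgeR and DESeq2 and 1 without DAPT replicate 1, vehicle replicate 1 or vehicle replicate 3.

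Of 32 listed genes that control the step from G1 to S phase, 3 rose, 3 fell and 26 were not called, and the median log2 change was 0.02. The share was 9.38% in each direction, near the 9.22% higher and 8.91% lower among all genes tested. Ccnd1, cyclin D1, which starts the inactivation of retinoblastoma proteins, had 3763, 3571 and 3854 in the DAPT libraries and 2477, 2693 and 3123 in the vehicle libraries, 1.35-fold higher (limma adjusted p = 1.41e-06). Rbl2, a retinoblastoma family member, had 1062, 1073 and 1093 in the DAPT libraries and 972, 975 and 919 in the vehicle libraries (limma adjusted p = 0.00585). Mycn, a transcription factor of the Myc family, had 23.7, 25.3 and 20.8 in the DAPT libraries and 65.8, 76.9 and 54.9 in the vehicle libraries, 2.74-fold lower (limma adjusted p = 2.32e-06). The list holds 7 genes for inhibitors of cyclin-dependent kinases, of which 1 fell and 6 were not called. The gene that fell was Cdkn2a, singled out after its values were seen, with 3868, 3783 and 3765 in the DAPT libraries and 4047, 4338 and 4128 in the vehicle libraries (limma adjusted p = 0.00825). Cdkn1a and Cdkn1b were among those not called, with log2 changes of -0.08 (95% interval -0.14 to -0.01) and 0.05 (-0.02 to 0.12). The genes that fell numbered 1 without vehicle replicate 2.

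Of 30 listed mitosis genes 2 rose, 1 fell and 27 were not called, and the median log2 change was 0.02. The share that rose was 6.67% and the share that fell 3.33%, against 9.22% and 8.91% of all genes tested. Cdc25b, a phosphatase that drives entry into mitosis, had 1097, 1072 and 1108 in the DAPT libraries and 926, 938 and 910.3 in the vehicle libraries (limma adjusted p = 0.000173). Kif23, a motor of cell division, had 699, 686 and 655 in the DAPT libraries and 634, 593 and 586 in the vehicle libraries (limma adjusted p = 0.0218), and Kif20a, another such motor, had 2062, 1967 and 1982 in the DAPT libraries and 2208, 2129 and 2178 in the vehicle libraries (limma adjusted p = 0.0271). Mki67, the usual marker of dividing cells, had 4537, 4434 and 4185 in the DAPT libraries and 4827, 4373 and 3854 in the vehicle libraries, with a log2 change of 0.02 and a 95% interval of -0.09 to 0.12. Ccna2, cyclin A2, which acts in S phase and after it, was at 0.07 (-0.02 to 0.17). The difference between the replication and mitosis lists was not itself tested. The mitosis genes that rose numbered 1 without DAPT replicate 1, DAPT replicate 2, vehicle replicate 2 or vehicle replicate 3, and the genes that fell numbered 0 without DAPT replicate 2 or 3.

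**Figure D5:**
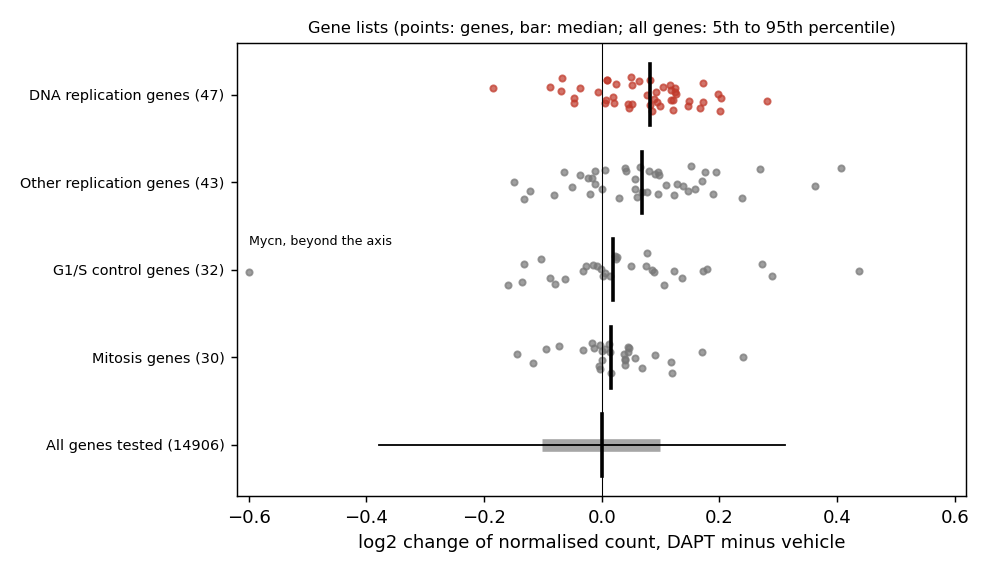
Log2 change (x axis, DAPT minus vehicle) of the 47 DNA replication genes, of 3 other lists (points are genes, black bars medians) and of all 14906 genes tested (box from the 25th to the 75th percentile, line from the 5th to the 95th). The medians are 0.08, 0.07, 0.02 and 0.02 for the lists and 0.0009 for all genes, and Mycn, at -1.45, is drawn at the edge.

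Several calls were lost when 1 library was left out. In those fits 12.6% to 18.4% of all genes were called, against 18.1% with all 6 libraries. Whether a given library or the smaller number of libraries cost a call was not tested. Without DAPT replicate 1 the calls of Cdc45, Cdc6 and Uhrf1 were lost. Without DAPT replicate 2 those of Cdc45, Pola1, Pcna, Lig1, Tk1, Uhrf1, Chaf1b and Pold2 were lost, and without DAPT replicate 3 those of Cdc45, Pola1, Rpa1, Lig1 and Tk1. Without vehicle replicate 1 Cdc45 and Lig1 lost their calls, without vehicle replicate 2 Cdc6, Pola1, Rpa1, Tk1, Chaf1b and Pold2, and without vehicle replicate 3 Pola1 and Uhrf1, while Pole2 and E2f1 gained one. Ccne2 and Rrm2 kept their calls whichever library was left out. All 12 called genes kept their direction under all 16 alternatives.

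Reads of neighbouring genes set a limit on a few values. In the GENCODE M21 annotation, exons of 17 of the 47 genes overlap exons of another gene, among them the called genes Ccne2 (with Ints8), Cdc45 (Ufd1), Lig1 (Zswim9), Rpa1 (Gm47300) and Tk1 (Afmid). The strand setting of the counting is not given in the sources used here, so the split of reads at those places is uncertain. For Ccne2 the overlap with Ints8 is 336 bases, and Ints8 averaged 573 under DAPT and 532 in vehicle.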

How the data were processed

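The 6 samples, 3 per group, held RNA of cultured aortic smooth muscle cells. Groups and replicate numbers come from the sample titles; the table's column letters C and I were read as control and inhibitor. TopHat2 2.0.4, HTSeq 0.5.4p3, DESeq 1.16.0 and mm9 are named in the submitters' processing notes, without roles. The authors deposited, per library, a signal equal to the read count divided by 1 size factor: in all libraries 100% of values were whole multiples of 1 read, within 0.01 reads. The size factor of DAPT replicate 3 is too near 1 for a formal check, so the count models, limited to recovered counts, used the other 5 libraries. The deposited log2 ratio ran as DAPT over vehicle in 12210 of 12213 genes with both means above 50. The deposited p-values and adjusted p-values were quoted for the replication genes only; their test is not stated. Deposited RPKM values were not used.

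Here limma 3.58.1 (R 4.3.3, intensity trend, two-sided) was fitted to log2(normalised count + 1), DAPT minus vehicle, on 14906 genes with at least 10 in at least 3 libraries. Fold changes are on that scale. Alternatives were edgeR 4.0.16, DESeq2 1.42.0, other pseudocounts, filters and scalings, a replicate block, robust fitting and leaving out each library. The procedure was run on simulated counts whose spread was set by hand rather than estimated from these libraries. Its pass condition covered 2-fold changes and unchanged genes, but not changes as small as those called here. Named are all called replication genes, the most abundant gene per length of each role (here by normalised count per kilobase), and up to 3 called genes per other list, with 8 check genes; 1 gene that this rule picks is not reported here. The 47 genes and all lists were chosen with earlier results of these data known. Promoter windows and their coordinates are RefSeq's.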

Additional observations from a re-analysis of the deposited data

How the results depend on the processing

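The median log2 change of the 47 genes stayed between 0.077 and 0.089 under all alternatives, and the mean level was above vehicle in 36 to 39 of them. The count of replication genes that rose was 4 to 11 when 1 library was left out, 5 with edgeR and 1 with DESeq2 on 5 libraries, and 10 or 11 under other pseudocounts, filters, scalings, robust fitting and the replicate block. The count that fell was 0 to 1 when 1 library was left out and 0 with DESeq2. These fits hold 5 libraries. On the same 5 libraries, those without DAPT replicate 3, the count that rose was 6 with limma, 5 with edgeR and 1 with DESeq2. The cause of the lower counts was not tested. Over all genes, 982 were called with DESeq2 (445 higher and 537 lower), and 1868 to 2718 with 1 library left out (929 to 1401 higher, 939 to 1317 lower). For the other replication genes that rose the count was 2 with DESeq2 and 5 to 12 with 1 library left out, and 0 to 1 fell. For the genes of the step from G1 to S phase it was 1 higher and 1 lower with DESeq2, 5 lower with robust fitting, and 3 to 4 higher and 1 to 4 lower with 1 library left out. For mitosis genes it was 1 higher with DESeq2, 0 lower with edgeR and 0 lower with DESeq2, and 1 to 2 higher and 0 to 1 lower with 1 library left out. The 3 lists together had 5 calls with DESeq2 and 11 to 24 with 1 library left out.

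Replicate numbers are shared between groups, and the sample titles do not say whether they pair the samples. Deviations of same-numbered libraries correlated at -0.0175 to 0.0267, and those of differently numbered libraries at -0.0376 to 0.0268. With 3 libraries per group these values cannot decide whether the samples were paired. With the replicate block 11 replication genes rose and 1 fell. Signs turned in genes near 0. Mcm7 was at 0.00204 with quantile normalisation, 0.000111 with edgeR and 0.00276 with DESeq2, and Gins2 at -0.00221, -0.00528 and -0.00321 in the same settings. Mcm6 was at -0.0191 with edgeR and -0.0168 with DESeq2, and Rpa3 at -0.0614 and -0.0539. With 1 library left out the log2 change ran from -0.0113 to 0.0307 for Mcm2, -0.00685 to 0.0418 for Mcm5, -0.0164 to 0.0246 for Mcm6, -0.0360 to 0.0159 for Mcm7, -0.0171 to 0.0281 for Gins2, -0.0572 to 0.107 for Gmnn, -0.0107 to 0.0880 for Prim1, -0.0442 to 0.0894 for Rpa3 and -0.00436 to 0.0367 for Rrm1. The median standard error of the 47 log2 changes was 0.0448, and the smallest change that was called was 0.12.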
